A study of Mus musculus with 6 samples.

Results

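Retinoic acid is made inside embryonic tissues from vitamin A and acts as a short-range signal. Retinaldehyde dehydrogenases such as Aldh1a2 oxidise retinaldehyde to retinoic acid, small binding proteins such as Crabp1 and Crabp2 carry it in the cytoplasm, and Cyp26 enzymes break it down. In the nucleus it binds the receptors Rara, Rarb and Rarg, which pair with retinoid X receptors on DNA. In the early mouse embryo Aldh1a2 is the main source of the signal in trunk mesoderm, and mice without it die with heart and vessel defects.

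The 9 retinoic acid pathway genes described here are Rara, Rarb, Rarg, Cyp26a1, Aldh1a2, Crabp1, Crabp2, Stra6 and Dhrs3. A probe set, the group of short oligonucleotides that reads 1 transcript on the array, was taken where the array annotation gave it exactly 1 gene and that gene was in this list. That held for 10 of 45101 probe sets, and all 9 genes of the list were found among 18194 genes tested. Rarg had 2 probe sets and the other 8 genes had 1 each, and the brighter of the Rarg probe sets over the 6 arrays stood for that gene.

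RNA came from Flk1-positive cells sorted from day 4 embryoid bodies, which the labels equate with haemangioblasts, shared precursors of blood and endothelium. The embryoid bodies were grown without leukaemia inhibitory factor from Ldb1-/- or Ldb1+/+ mouse embryonic stem cells, with 3 biological replicates of the Ldb1-/- (knockout) and 3 of the Ldb1+/+ (wild-type) genotype, each on 1 Affymetrix mouse array. LDB1 is an adaptor protein that joins LIM-domain proteins into transcription factor complexes. The labels give neither the deleted part of the gene, nor the number of stem cell clones, nor what a replicate number stands for, so p-values measure only the spread between these arrays.

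Ldb1 itself read 7.25, 6.60 and 8.25 in knockout arrays 1, 2 and 3, against 7.78, 7.31 and 8.31 in wild-type arrays, with a limma adjusted p of 1.00. This probe set therefore does not check the genotype. The 6 markers of Flk1-positive mesoderm, such as Kdr (the gene of Flk1) and Etv2, had means between 9.54 and 12.11 in knockout and between 10.24 and 12.12 in wild-type arrays. Their differences, knockout minus wild type, ran from −1.10 for Hand1 to 0.62 for Lmo2, with Kdr at −0.42, and 3 of the 6 were lower. Hand1 and Kdr were lower, and Lmo2 higher, within each replicate number. None had a limma adjusted p under 0.05, with or without the replicate number as a block. All values are log2 expression levels, and array medians lay between 5.71 and 5.77. Both number 3 arrays stood apart in their control probe sets, with an 18S ribosomal RNA control at 12.1 in knockout and 11.9 in wild type, against 8.51 to 9.39 on the other 4. Their gap between 3′ and 5′ Gapdh controls was also narrower, at 1.44 in knockout and 1.54 in wild type, against 3.38 to 4.20 on the others.

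Promoter sequences are shown for 4 members. A retinoic acid response element is classically a direct repeat of a 6-letter half-site with 5 bases between the copies. The half-sites searched were AGGTCA and AGTTCA, with GGGTCA and then GGTTCA as further forms. Both strands of RefSeq promoter windows on GRCm38.p6, running from 250 bases before to 50 after a transcript's start, were searched for any pairing of these 4 at that spacing. It was found in 32 of 32851 windows (0.0974%), and in 2 of the 17 windows of 8 members (all but Crabp2), those of Rarb and Cyp26a1. Both genes are known targets of the pathway, and for that reason their matches are shown with the half-sites in capitals. The Rarb stretch lies at chr14:16575507-16575535 on the minus strand. Its repeat begins 53 bases before a transcript start at 16575476, which is internal to the gene, so the stretch lies within the gene's full extent. The Cyp26a1 stretch lies at chr19:37697770-37697798 on the plus strand. Its repeat reads on the opposite strand, and the repeat's farthest upstream base lies 32 bases before a transcript start at 37697808. The stretch too lies inside the gene's full extent, which begins upstream of it.
Rarb: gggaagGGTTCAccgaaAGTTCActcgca
Cyp26a1: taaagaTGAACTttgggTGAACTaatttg

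No window of a member held the repeat with a spacer of 1 or 2 bases, which occurred in 0.222% and 0.268% of all windows. The promoters of Aldh1a2 and Crabp1 are shown because these 2 genes had the largest differences between the genotypes among the 9 members. Each stretch is the 250 bases before the start, on the plus strand, at chr9:71215539-71215788 for Aldh1a2 and chr9:54764498-54764747 for Crabp1. Capitals mark E-boxes (CANNTG), sites of the kind bound by TAL1, a partner of LDB1 in blood cells.
Aldh1a2: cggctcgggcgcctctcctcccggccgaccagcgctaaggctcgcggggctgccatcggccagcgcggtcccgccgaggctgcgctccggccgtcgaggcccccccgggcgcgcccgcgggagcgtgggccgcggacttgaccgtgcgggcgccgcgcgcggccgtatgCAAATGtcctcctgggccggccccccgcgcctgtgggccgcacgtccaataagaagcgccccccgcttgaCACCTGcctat
Crabp1: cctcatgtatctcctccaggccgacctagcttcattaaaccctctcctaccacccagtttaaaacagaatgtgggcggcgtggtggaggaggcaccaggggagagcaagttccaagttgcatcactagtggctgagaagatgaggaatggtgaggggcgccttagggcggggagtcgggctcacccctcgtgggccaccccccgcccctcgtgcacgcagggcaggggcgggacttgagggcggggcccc

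The Aldh1a2 stretch held 2 E-boxes and the Crabp1 stretch 0, while 72.3% of all windows, which also take in the 50 bases after the start, held at least 1. Neither stretch held a GATA site (AGATAA or TGATAA, in 18.6% of windows on either strand), the sequence TAATTA (5.29%) or an E-box followed by GATA after 8 to 10 bases (1.63%). Neither held a single retinoic acid half-site, which occurred in 43.7% of windows. These are matches of letters in short windows and say nothing of binding.

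Aldh1a2, which makes retinoic acid, fell 2.99-fold in Ldb1 knockout cells, and Crabp1, which binds it in the cytoplasm, fell 3.25-fold. Both passed the test where the replicate number was a block, and neither did without it. The other 7 members did not pass the test in either fit. Among them Cyp26a1 differed by −0.86, Crabp2 by 0.41 and Rarg by 0.38 on the log2 scale, knockout minus wild type. In bulk RNA fewer cells of a type and less RNA per cell cannot be told apart. Without the replicate number 0 of the 9 members passed (limma, adjusted p over all genes), and 2 had an unadjusted p under 0.05, Aldh1a2 and Crabp1. In that fit 4 of 18194 genes passed, 0.022%, and 3.85% had an unadjusted p under 0.05. With the number as a block 2 of 9 members passed, against 0.341% of all genes, and 4 had an unadjusted p under 0.05, against 8.94%.

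Across the 9 members the median difference, knockout minus wild type, was −0.13, against −0.01 over all genes tested. The median size of the difference regardless of sign was 0.38 for the members and 0.11 for all genes. Members also varied more over the 6 arrays, with a median SD of 0.34 against 0.23. The 2 groups did not overlap for 2 members, Aldh1a2 and Crabp1, both lower in knockout cells. A gap of that kind was found for 4.47% of all genes with knockout lower and 3.45% with knockout higher, and for 0 members in the higher direction. Knockout was lower within all 3 replicate numbers for 4 members, Aldh1a2, Crabp1, Cyp26a1 and Rarb, against 14.9% of all genes. It was higher in all 3 for 1 member, Rarg, against 13.5%.

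**Figure D1:**
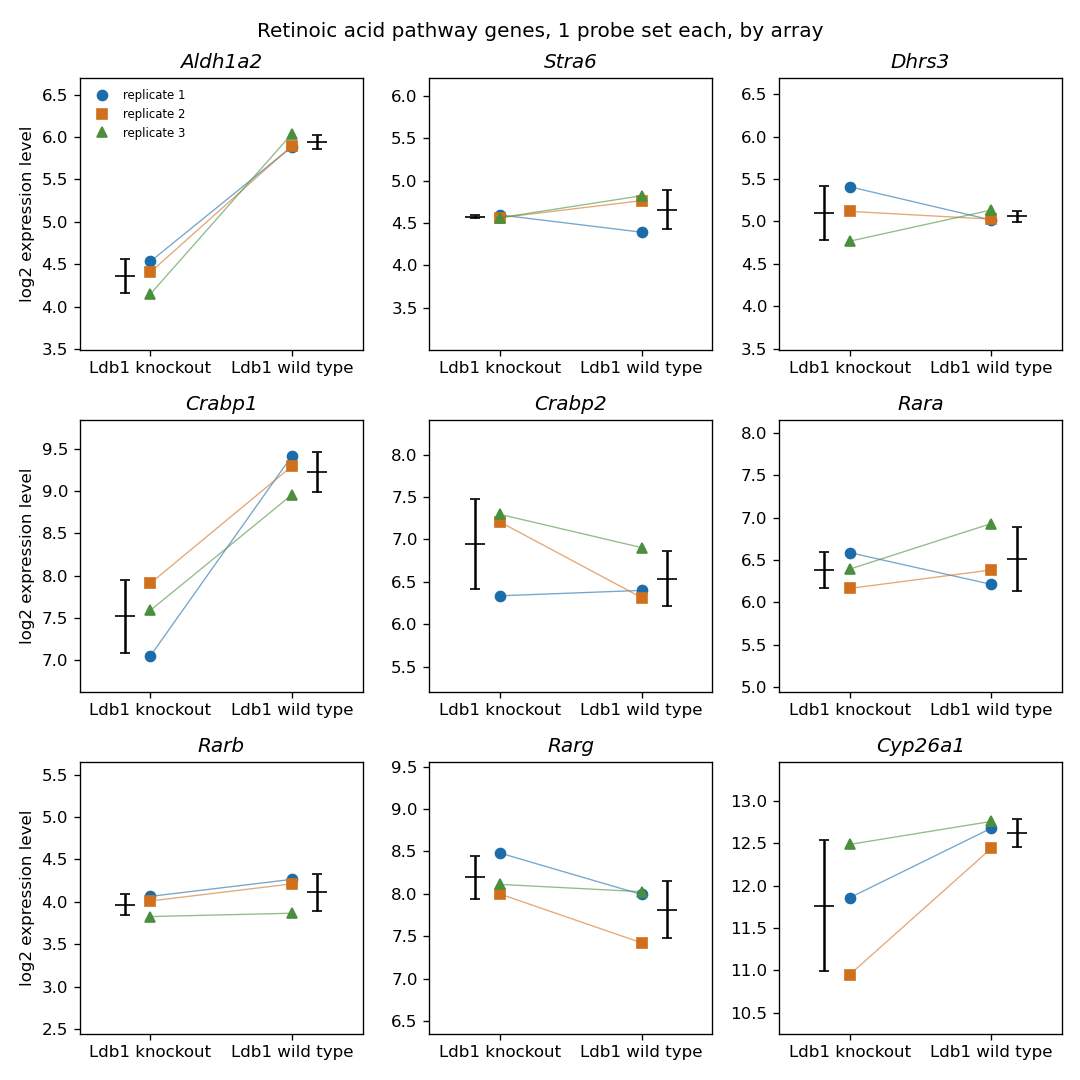
Log2 expression level of each of the 9 genes (1 probe set per gene) in 3 Ldb1 knockout arrays, left, and 3 Ldb1 wild-type arrays, right. Lines join arrays of the same replicate number, bars show the mean ± SD, and every panel spans the same range of log2 units. The groups are apart for Aldh1a2 and Crabp1 and overlap for the other 7 genes.

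Supply of the signal is represented by Aldh1a2, Stra6 and Dhrs3. Aldh1a2 (chromosome 9, 71215789 to 71296243 on GRCm38.p6) read 4.53, 4.41 and 4.15 in knockout arrays 1, 2 and 3, against 5.89, 5.90 and 6.04 in wild-type arrays. Every knockout array was lower than every wild-type array, by at least 1.35 within a number. The means were 4.36 ± 0.20 in knockout and 5.94 ± 0.08 in wild type (SD, n = 3 each), a difference of −1.58 with a 95% interval from −1.93 to −1.23 and a 2.99-fold fall. The adjusted p in limma was 0.0543 without the block and 0.0194 with it. The wild-type values lay just above the arrays' medians. The knockout values lay near the arrays' lower quartiles of 4.23 to 4.28, among the dim probe sets, where array values compress differences.

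The Aldh1a2 difference within a number was −1.35, −1.49 and −1.89 in numbers 1, 2 and 3. It remained past the threshold in the blocked fit without number 1, 2 or 3 (limma, adjusted p of 0.0129, 0.000421 and 7.2e-05). Those fits called 50, 267 and 816 genes, against 62 in the blocked fit of all arrays. Without a block Aldh1a2 did not pass with any of the 6 arrays left out. The adjusted p in limma then lay between 0.107 and 0.360 and the differences between −1.66 and −1.47. With all 6 arrays and no block it passed under repeated quantile normalisation, trended robust variance, array weights and the mean over probe sets (limma, adjusted p of 0.0377, 0.0178, 0.00414 and 0.0320). Aldh1a2 has 1 probe set, so the mean over probe sets left its values unchanged and altered only genes with more.

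Stra6 (chromosome 9, 58063793 to 58154004) encodes the cell surface receptor through which cells take up retinol from its plasma carrier. It read 4.60, 4.56 and 4.56 in knockout arrays, against 4.39, 4.76 and 4.82 in wild-type arrays. The groups overlapped, and the difference of −0.09 had a 95% interval from −0.45 to 0.28 (limma, adjusted p = 1.00). Dhrs3 (chromosome 4, 144892534 to 144928209) reduces retinaldehyde back to retinol and so lowers the substrate of Aldh1a2. It read 5.41, 5.12 and 4.77 in knockout arrays, against 5.02, 5.03 and 5.14 in wild-type arrays. Its difference of 0.04 (95% interval from −0.40 to 0.47) was 0.39, 0.09 and −0.37 in numbers 1, 2 and 3, so its sign changed between them. It was −0.12 without knockout replicate 1. Both genes read below the arrays' medians.

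The carriers Crabp1 and Crabp2 went opposite ways on average. Crabp1 (chromosome 9, 54764748 to 54773110) read 7.05, 7.91 and 7.59 in knockout arrays, against 9.41, 9.29 and 8.95 in wild-type arrays. The lowest wild-type array was well above the highest knockout array. The means were 7.52 ± 0.43 in knockout and 9.22 ± 0.24 in wild type (SD, n = 3 each), a difference of −1.70 with a 95% interval from −2.29 to −1.12 and a 3.25-fold fall. The adjusted p in limma was 0.182 without the block and 0.0400 with it.

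Within numbers 1, 2 and 3 the Crabp1 difference was −2.36, −1.38 and −1.36, so it was widest in number 1. There the knockout array was the lowest of all 6 and the wild-type array the highest. Without both number 1 arrays the blocked difference was −1.37 (limma, adjusted p = 0.0335), and without those of number 2 or 3 it was −1.86 or −1.87. Repeated quantile normalisation ended the blocked call (limma, adjusted p = 0.0629), at a difference of −1.74.

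Crabp2 (chromosome 3, 87948693 to 87953372) carries retinoic acid to the nuclear receptors. It read 6.34, 7.21 and 7.30 in knockout arrays, against 6.40, 6.31 and 6.90 in wild-type arrays. Knockout arrays 2 and 3 were above every wild-type array, and knockout array 1 lay among them. The difference was 0.41 with a 95% interval from −0.30 to 1.11 (limma, adjusted p = 1.00, blocked 0.639), and it was −0.06, 0.89 and 0.39 in numbers 1, 2 and 3.

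The receptor genes showed smaller differences, and none passed the test in either fit. Rara read 6.59, 6.16 and 6.39 in knockout arrays, against 6.21, 6.38 and 6.93 in wild-type arrays, so the groups overlapped widely. Its difference of −0.13 (95% interval from −0.65 to 0.40) was 0.37, −0.22 and −0.54 in numbers 1, 2 and 3, and became 0.08 without wild-type replicate 3. Rara lies on chromosome 11 (98927800 to 98974942), whose 1452 measured genes had a median difference of −0.16, with 80.2% lower in knockout cells. Its mean difference lay near that median, but its interval is wide and takes in 0 too. The part of the chromosome in it was not tested.

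Rarb (chromosome 14, 16430839 to 17082331) is a receptor gene that retinoic acid itself induces in many cells. It read 4.06, 4.01 and 3.83 in knockout arrays, against 4.26, 4.21 and 3.87 in wild-type arrays. Every value lay at or near the lower quartile of its array or below it, and the difference of −0.15 had a 95% interval from −0.52 to 0.23 (limma, adjusted p = 1.00). Knockout was lower in each number, by 0.04 to 0.20. The values do not show whether the gene was expressed, since no detection calls were used.

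Rarg (chromosome 15, 102234938 to 102257522) is the receptor gene with 2 probe sets. The brighter one read 8.48, 8.00 and 8.11 in knockout arrays, against 7.99, 7.42 and 8.02 in wild-type arrays. The knockout array was higher in each number, by 0.49, 0.58 and 0.09, but the groups overlapped. The difference of 0.38 had a 95% interval from −0.14 to 0.90 (limma, adjusted p = 1.00) or from 0.03 to 0.73 with the block (adjusted p = 0.494). Without both number 3 arrays it was 0.53 and passed with the block (limma, adjusted p = 0.0375). That fit called 816 genes, against 62 in the blocked fit of all arrays. The dimmer probe set read 6.29, 6.21 and 6.15 in knockout arrays, against 5.94, 5.94 and 7.05 in wild-type arrays. Its difference was −0.09, and the sign was set by number 3, at −0.90, while numbers 1 and 2 gave 0.34 and 0.27. The 2 probe sets therefore disagreed in direction on average and not in numbers 1 and 2.

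Cyp26a1 (chromosome 19, 37697738 to 37701536) clears retinoic acid and, as a direct target, is often used as a readout of the signal. It read 11.86, 10.95 and 12.49 in knockout arrays, against 12.68, 12.44 and 12.76 in wild-type arrays. Knockout replicate 3 was just above wild-type replicate 2, and that pairing is the sole overlap between the groups. The means were 11.77 ± 0.77 in knockout and 12.63 ± 0.17 in wild type (SD, n = 3 each), a difference of −0.86 with a 95% interval from −1.73 to 0.01. The SD was thus wider in knockout, and the test was not passed (limma, adjusted p = 1.00, blocked 0.275).

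Within numbers 1, 2 and 3 the Cyp26a1 difference was −0.82, −1.49 and −0.27. Knockout replicate 2 weighed most: without it the difference was −0.45. Without both number 3 arrays it was −1.15 and passed with the block (limma, adjusted p = 0.00131). That fit called 816 genes, against 62 in the blocked fit of all arrays, so passing it sets Cyp26a1 less apart. Cyp26a1 also passed with array weights and the block, at −1.07 (limma, adjusted p = 0.0187), where 517 genes were called. Both number 3 arrays stood apart in their control probe sets, as given above, and the part of that in the smaller difference was not tested.

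**Figure D2:**
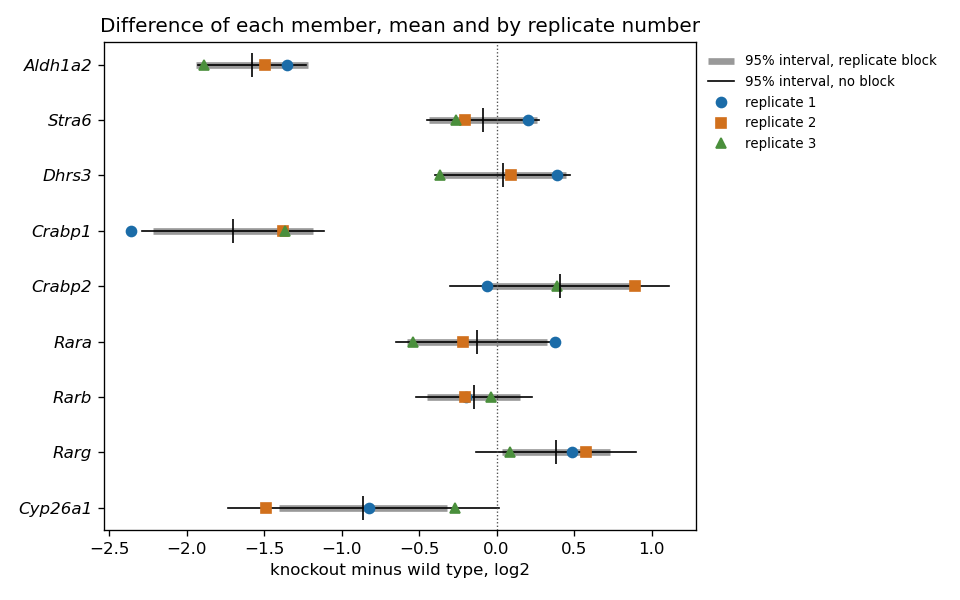
Knockout minus wild type on the log2 scale for each member. Black ticks mark the mean, coloured points the difference within replicate numbers 1, 2 and 3, thin bars the 95% interval without a block and thick bars that with the replicate block. Both intervals lie below 0 for Aldh1a2 and Crabp1, and the blocked one alone excludes 0 for Cyp26a1 and Rarg.

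Among the 9 members, Aldh1a2 and Crabp1 passed in the most of the alternatives run. Aldh1a2 lay between −1.69 and −1.42 in 24 settings and passed in 15. Crabp1 lay between −1.90 and −1.37 in 26 settings and passed in 12. Most passes came with the block, whose pairing was taken from the data. With it Aldh1a2 passed in every one of its settings, and Crabp1 in all but repeated quantile normalisation. Without the block Crabp1 passed only with array weights (limma, adjusted p = 0.0245), where 68 genes were called, against 4 without weights. Aldh1a2 passed without the block in the settings named above. The settings refit the same arrays, so the passes are not separate tests. Cyp26a1 passed in 2 of 26 and Rarg in 1, all with the block. Rara, Rarb, Crabp2, Stra6 and Dhrs3 passed in 0 of their settings.

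**Figure D3:**
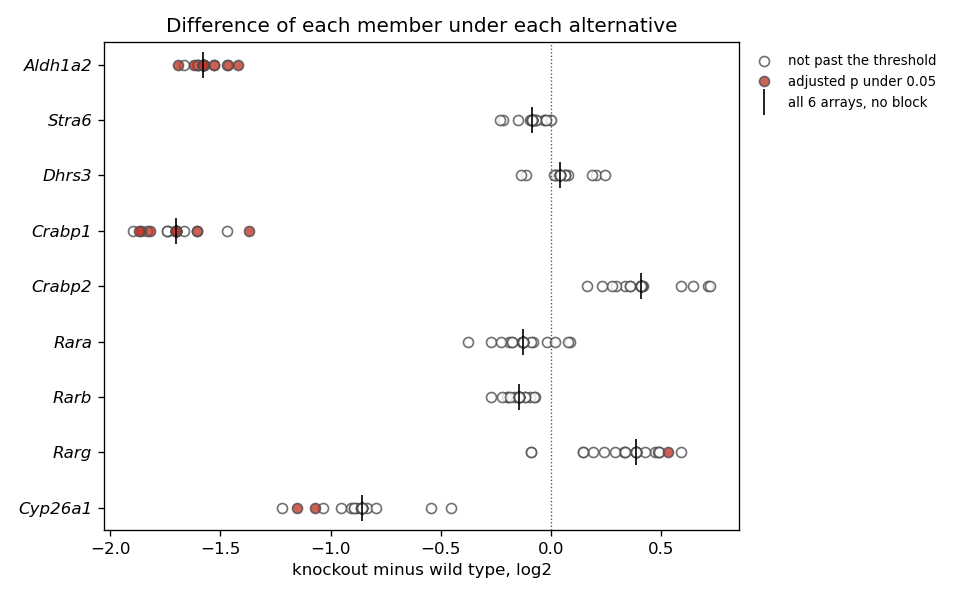
Knockout minus wild type on the log2 scale for each member under every alternative, with red points where limma's adjusted p was under 0.05 and open points elsewhere. Black ticks mark all 6 arrays without a block. Aldh1a2 and Crabp1 stay well below 0 throughout, with red points for Cyp26a1 at −1.15 and −1.07 and for Rarg at 0.53.

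The genes whose course over the 6 arrays was most like that of a member were found by the root mean square gap between log2 values, each gene centred on its own mean. This was done for the 6 members whose SD was above the median of all genes. Closest to Aldh1a2 were Gata1 (gap 0.178), Gfi1b (0.185) and Hoxb6 (0.189). Closest to Crabp1 were Gfi1b again (0.214), the growth factor gene Fgf3 (0.253) and Cfc1 (0.254), which encodes a Nodal co-receptor. Gata1 and Gfi1b encode transcription factors of erythroid and megakaryocytic cells. Closest to Cyp26a1 were Zcchc12 (0.213), the chemokine receptor gene Cxcr4 (0.252) and Ppp3r1 (0.261). For Rarg the closest was Isg20 (0.114), for Crabp2 B3gnt5 (0.125) and for Rara Gkn1 (0.0412). The likeness is a description over 6 arrays. The profiles include the genotype difference, so genes close to Aldh1a2 or Crabp1 are ones with a similar fall. The likeness therefore gives no separate support.

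Other genes of the pathway were taken from 4 lists of 47 genes, of which 38 were measured. Without the block 0 of these 38 passed (limma), against 0.022% of all genes, and 5 had an unadjusted p under 0.05, against 3.85%. With the block 1 fell and 0 rose, against 0.341% of all genes called. Their median difference was −0.08 and 27 of 38 were lower in knockout cells, against 53.7% of all genes. The groups did not overlap for 6 of the 38 with knockout lower, against 4.47% of all genes, and for 1 with knockout higher, against 3.45%. The 6 were Aldh1a1, Rbp4, Hoxb2, Hoxb4, Hoxb5 and Meis1. The Hoxb genes and Meis1 lie on chromosome 11, where 80.2% of measured genes were lower in knockout cells. Aldh1a1 read between 3.28 and 3.60, below the lower quartile of every array.

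Retinoid supply, storage and oxidation genes showed no call among 15 measured, with a median difference of −0.08. Adh5, Rdh11 and Rdh14, a broad alcohol dehydrogenase gene and 2 retinol dehydrogenase genes, differed by −0.07, −0.08 and −0.15. Rbp4, which encodes the plasma carrier of retinol, was picked with its values known because its unadjusted p was under 0.05. It read 6.86, 7.62 and 7.41 in knockout arrays, against 8.06, 8.53 and 8.04 in wild-type arrays. The groups did not overlap, but the difference of −0.92 did not pass (limma, adjusted p = 0.755, blocked 0.0909). Of the 15 genes 12 were lower in knockout cells. In the other direction Rdh10 and Dhrs4, also picked with their values known, differed by 0.45 and 0.33. Both were higher in knockout within each replicate number, and the Dhrs4 groups did not overlap. Neither passed with the block (limma, adjusted p = 0.336 and 0.620) or without it.

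Genes of delivery and degradation included Fabp5, an alternative carrier of retinoic acid, and Cyp26b1, a second degrading enzyme. They differed by −0.06 and −0.22 and did not pass. Among 10 receptor partners and cofactors 0 passed, with a median difference of −0.06. Rere, Crebbp and Ncoa2, a coactivator of retinoic acid receptors and 2 general coactivators, differed by −0.10, 0.07 and −0.05.

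Known retinoic acid target genes numbered 11 measured, with a median difference of −0.24, and 1 of them fell. Hoxb2, a homeobox gene of hindbrain and trunk patterning, read 7.73, 7.90 and 7.50 in knockout arrays, against 9.09, 9.07 and 8.79 in wild-type arrays. The groups were well apart, with a difference of −1.28 (95% interval from −1.66 to −0.89; limma, adjusted p = 0.148, blocked 0.0221). Without both number 1 arrays the blocked difference was −1.23 and did not pass (limma, adjusted p = 0.0512), and over 26 settings it passed in 12. Hoxb1 and Meis2, by the naming rule, differed by −0.72 and −0.07 and did not pass. Hoxb5 (−1.52), Meis1 (−1.49) and Hoxb4 (−0.75) were picked with their values known, for an unadjusted p under 0.05, and did not pass with the block (limma, adjusted p = 0.0892, 0.0909 and 0.120).

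The 5 genes of the target list with differences below −0.70, Hoxb1, Hoxb2, Hoxb4, Hoxb5 and Meis1, all lie on chromosome 11. Their differences ran from −0.72 to −1.52, while the chromosome's median was −0.16. The part of the chromosome in these differences was not tested. Genes of the target list elsewhere in the genome lay between −0.24 for Tgm2 and 0.34 for Nr2f2. None of them passed. The member Cyp26a1, a direct target on chromosome 19 that is not in this list, differed by −0.86.

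**Figure D4:**
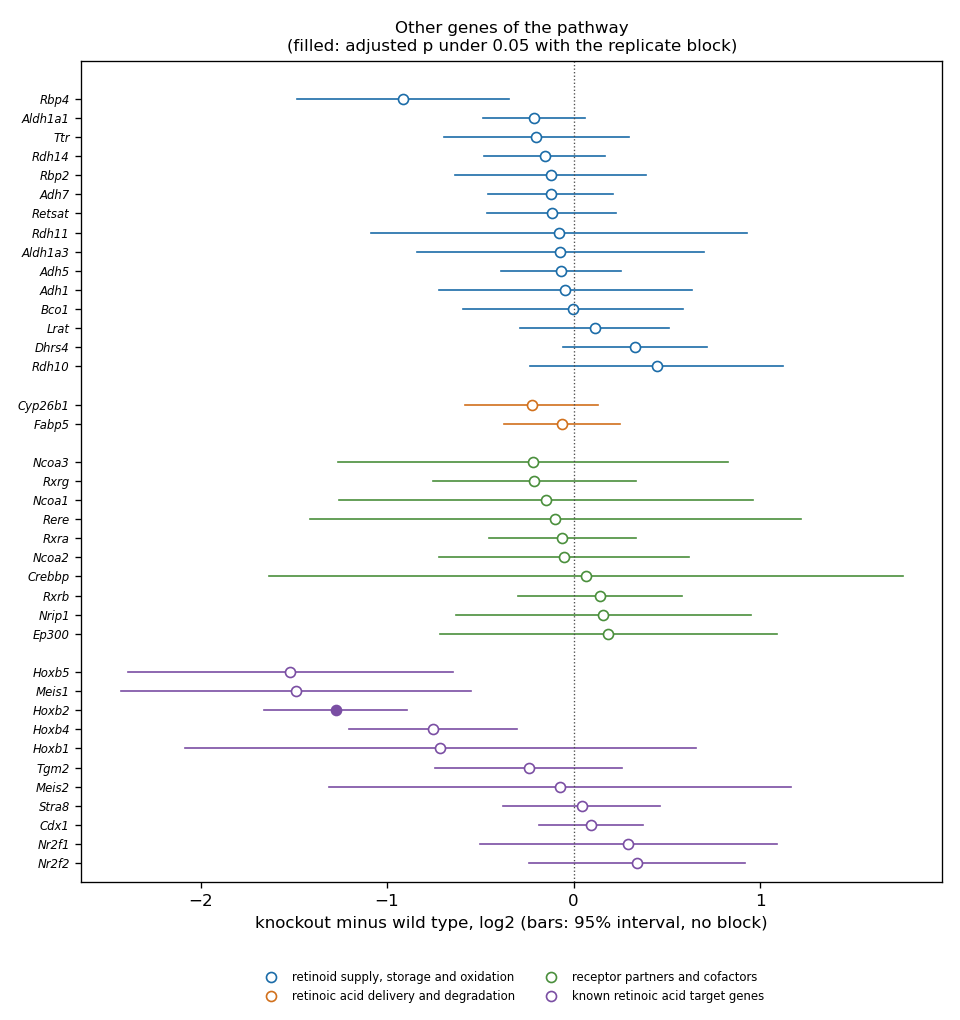
Knockout minus wild type on the log2 scale for 38 other genes of the pathway, in 4 lists. Bars show the 95% interval without a block, and the filled point marks Hoxb2, the 1 gene with a blocked adjusted p under 0.05.

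Markers of other cell types that the sort could hold were set beside the members. Over 5 cardiac mesoderm markers, including Mesp1 and Gata4, the summed log2 level ranged from 39.0 to 42.0 in knockout and from 43.1 to 46.0 in wild-type arrays, and all 5 had lower means in knockout cells. Of these Hand2 alone passed, with the block (limma, adjusted p = 0.00103). Without Hand2, a choice made after seeing the data, the sums were 34.1, 31.7 and 32.9 in knockout arrays, against 35.3, 33.1 and 34.2 in wild-type arrays, and the groups overlapped. Within each replicate number the knockout sum was still the lower. Over 3 primitive erythroid markers, including Hbb-bh1 and Hba-x, the summed level ranged from 13.1 to 13.7 in knockout and from 19.0 to 19.3 in wild type. Hbb-bh1, an embryonic globin gene, fell in both fits, with means of 4.94 in knockout and 8.84 in wild type. Hbb-y, at a difference of −1.71, passed with the block alone (limma, adjusted p = 0.0250). Hba-x differed by −0.24, its groups overlapped and it passed in neither fit. Without Hbb-bh1, likewise chosen after seeing the data, the sums of the other 2 were 8.54, 8.36 and 8.27 in knockout arrays, against 10.7, 10.4 and 9.91 in wild-type arrays, with no overlap. Hbb-bh1, Hbb-y and Hand2 were lower in the same arrays as Aldh1a2 and Crabp1, and their part in those results was not tested.

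Over 5 paraxial mesoderm markers, including Tcf15 and Msgn1, the summed level ranged from 27.9 to 28.6 in knockout and from 27.6 to 29.2 in wild type, so the groups overlapped. Over 5 endoderm markers, including Sox17 and Ttr, it ranged from 27.0 to 30.3 in knockout and from 29.8 to 30.8 in wild type, and all 5 had lower means in knockout cells. Over 4 endothelial markers, including Esam and Tek, it ranged from 20.3 to 27.6 in knockout and from 23.6 to 24.8 in wild type. The groups overlapped in these 3 lists, and none of their genes passed in either fit. Over 4 neural markers, including Pax6 and Sox2, it ranged from 19.8 to 20.6 in knockout and from 18.9 to 20.4 in wild type. Over 4 markers of pluripotent cells, including Pou5f1 and Nanog, it ranged from 31.5 to 34.0 in knockout and from 31.0 to 31.3 in wild type. The neural sums overlapped, the pluripotent sums were higher in every knockout array, and no gene of either list passed. Of the pluripotent markers only Zfp42 had no overlap, at 7.56, 7.35 and 7.21 in knockout arrays, against 6.90, 6.74 and 6.15 in wild-type arrays. Within numbers 1, 2 and 3 Pou5f1 differed by 0.32, −0.44 and 1.55. Nanog differed by −0.28, 0.04 and 1.16, and Esrrb by −0.15, 0.09 and −0.80. The part of these lists in the members' values was not tested.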

How the data were processed

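RNA of 6 samples was measured on Affymetrix arrays. The deposited values are log2 expression levels per probe set, with RMA and affy named, without versions, per the submitters' processing notes. Probe sets annotated to exactly 1 gene (34958 of 45101) were kept. The 1 with the highest mean over the arrays stood for its gene, giving 18194 genes.

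Knockout was set against wild type with limma 3.58.1 (R 4.3.3; lmFit, eBayes, Benjamini-Hochberg over all genes, threshold 0.05), and also with a replicate block. Deviations from the genotype mean correlated at 0.699, 0.354 and 0.448 within numbers 1, 2 and 3, all above 0.1, so the numbers were taken to pair the arrays. That pairing comes from the data, since the labels do not explain the numbers. The second Rarg probe set was tested among all probe sets.

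The members and lists were chosen with earlier results of these data known. Named genes were the 9 members, in each pathway list those past the threshold in either fit plus the 3 of highest mean, for each of 6 members the nearest 3 profiles, and the 2 markers of highest mean per cell type. Rbp4, Rdh10, Dhrs4, Hoxb4, Hoxb5, Meis1, Tgm2, Nr2f2, Hand1, Hand2, Lmo2, Hbb-y and Ep300 fall outside this rule and were picked with their values known. Aldh1a1, Zfp42 and Esrrb were likewise picked outside it. Fits were tested on simulated data. The number of arrays limits the precision. Promoters came from RefSeq (GRCm38.p6).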

Additional observations from a re-analysis of the deposited data

How the results depend on the processing

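Alternatives were computed for the 9 members, Hoxb2 and the counts of genes called, and the causes of the changes were not tested. All genes called numbered 4 without a block and between 1 and 6 with 1 array left out, when 0 members and 0 other pathway genes were called. With the replicate block 62 genes, 2 members and 1 other pathway gene were called. With the block and without both arrays of number 1, 2 or 3 the counts were 50, 267 and 816 genes, 2, 2 and 4 members, and 0, 3 and 7 other pathway genes, so the Hoxb2 call was lost without number 1. Repeated quantile normalisation called 6 genes and 1 member, and with the block 26 genes, 1 member and 1 other pathway gene. Subtracted array medians with the block called 65 genes, 2 members and 1 other. Trended robust variance called 5 genes and 1 member, and with the block 265 genes, 2 members and 4 others. Array weights called 68 genes, 2 members and 2 others, and with the block 517, 3 and 6. The mean over a gene's probe sets called 5 genes and 1 member, and with the block 48 genes, 2 members and 1 other. With the block, leaving out cross-hybridising probe sets called 58 genes, 2 members and 1 other, the probe set of highest SD 55, 2 and 1, and genes above the median level alone 55, 1 and 1. The last setting gives no value for Aldh1a2, Rarb, Stra6 and Dhrs3, which lie below that level.

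Signs changed for 4 members that passed in no setting in that direction. Rara ranged from −0.27 to 0.084 with 1 array left out, was 0.078 without number 3 with the block, and 0.018 with array weights and the block. Rarg was −0.094 with its probe set of highest SD in both fits. Stra6 was 0.0011 without number 3 with the block. Dhrs3 ranged from −0.12 to 0.20 with 1 array left out and was −0.14 without number 1 with the block.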

Other observations

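Several coactivator genes differed more between replicate numbers than between genotypes. Crebbp read 11.73, 10.09 and 9.93 in knockout arrays 1, 2 and 3, against 11.77, 10.50 and 9.29 in wild-type arrays. Rere read 11.48, 10.59 and 9.83 in knockout arrays, against 11.60, 10.78 and 9.80 in wild-type arrays. Ep300, picked with its values known, read 10.48, 9.85 and 9.93 in knockout arrays, against 10.64, 9.91 and 9.15 in wild-type arrays. For all 3 genes the number 1 array was the highest in both genotypes.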
